A study of Mus musculus with 16 samples.

Results

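Oncostatin M and its relatives act through receptors that share the signalling subunit gp130. The 9 genes described here are those whose symbol in the count table is one of a named list: the receptor subunits Osmr, Il6st (gp130), Lifr, Il6ra and Cntfr, the kinases Jak1 and Jak2, the transcription factor Stat3 and the inhibitor Socs3. They are 9 of the 55487 genes in the table, and all 9 passed the filter on low counts. The list was built around Osmr because the study picked Osmr from its own comparison of evacetrapib- with vehicle-treated mice. The treatment differences of these genes in the same mice are therefore given as a description, without a test.

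RNA was sequenced from bulk brain of 16 female mice on a C57BL/6J background, 4 in each of 4 groups. CETPtg mice carry a transgene for human CETP, a plasma lipid transfer protein that is missing in mice. APPtg/CETPtg mice also express mutant human APP in neurons, from the Thy1 promoter. Both strains were kept heterozygous, all 16 mice carried the CETP transgene, and all ate a diet with 1% cholesterol from 11 weeks of age. Mice of each genotype received either evacetrapib, a CETP inhibitor, at 30 mg/kg by daily intraperitoneal injection for 11 weeks, or the vehicle, Kolliphor EL with glucose. CETPtg evacetrapib replicates are A to D, CETPtg vehicle replicates S1 to S4, APPtg/CETPtg evacetrapib replicates E to H and APPtg/CETPtg vehicle replicates S5 to S8.

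The cytokines of this family differ in the subunit that binds them first. Oncostatin M is bound by the product of Osmr paired with gp130, leukaemia inhibitory factor by that of Lifr paired with gp130, and IL6 by the product of Il6ra, which then engages gp130. Ciliary neurotrophic factor binds the product of Cntfr, which lacks a signalling tail of its own and recruits the Lifr product and gp130. JAK kinases bound to the receptor tails then phosphorylate STAT3, which enters the nucleus and switches on target genes, among them Socs3, whose product binds gp130 and shuts the kinases off. In the brain this pathway is known for astrocyte reactivity, for the survival of neurons and for responses of the vessel wall.

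Promoters are shown for Osmr, around which the list was built, for Il6st, the member that differed between genotypes, and for Socs3, the classical feedback target of STAT3. Each runs from 250 bases before to 50 bases after a start site of RefSeq on GRCm38.p6, 5′ to 3′ on the strand of the gene. The Osmr window is chr15:6874264-6874563 on the minus strand, the Il6st window chr13:112463820-112464119 on the plus strand and the Socs3 window chr11:117969317-117969616 on the minus strand. Capitals mark a match to TTCNNNGAA, the palindrome that STAT proteins bind, whose letters are the same on both strands.
Osmr: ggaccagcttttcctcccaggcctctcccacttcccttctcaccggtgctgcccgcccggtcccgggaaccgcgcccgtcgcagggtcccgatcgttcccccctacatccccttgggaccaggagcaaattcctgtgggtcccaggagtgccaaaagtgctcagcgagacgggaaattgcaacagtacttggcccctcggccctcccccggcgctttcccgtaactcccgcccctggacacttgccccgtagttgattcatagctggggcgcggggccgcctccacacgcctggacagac
Il6st: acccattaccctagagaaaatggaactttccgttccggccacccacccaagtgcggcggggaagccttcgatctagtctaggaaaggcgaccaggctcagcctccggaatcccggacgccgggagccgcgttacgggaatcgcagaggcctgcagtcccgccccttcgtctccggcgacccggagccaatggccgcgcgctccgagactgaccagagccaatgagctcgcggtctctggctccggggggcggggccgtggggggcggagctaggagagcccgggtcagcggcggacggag
Socs3: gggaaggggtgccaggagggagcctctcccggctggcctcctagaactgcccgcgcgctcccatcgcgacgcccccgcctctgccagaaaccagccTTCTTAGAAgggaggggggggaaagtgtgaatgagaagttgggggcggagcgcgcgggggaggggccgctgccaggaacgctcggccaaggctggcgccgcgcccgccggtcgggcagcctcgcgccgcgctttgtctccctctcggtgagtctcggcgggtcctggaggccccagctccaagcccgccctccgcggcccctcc

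All 9 genes matched entries of the RefSeq promoter set, with 15 windows in all. Several windows belong to Cntfr and overlap one another, so the 15 are not separate promoters. TTCNNNGAA was found in 1 of the 15, that of Socs3, as TTCTTAGAA beginning 154 bases before the start, and in 8.30% of all 32851 promoters of the same length. The closer spelling TTCCNGGAA, whose matches are a subset of the first motif, was found in none of the 15 and in 1.15% of all promoters. GC content was 66.0% in the Osmr window, 68.3% in the Il6st window and 73.3% in the Socs3 window. A match to these letters is a description of the sequence and not a measured binding site.

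The count table held 21391335 to 55453789 reads per mouse. Libraries of CETPtg mice (28626139 to 46800787 reads) were deeper than all those of APPtg/CETPtg mice except S8, the deepest of all. Every mouse gave at least 66 reads on Osmr and 75 on Socs3, so counting error weighs most on these 2 genes. Thy1, whose promoter drives the APP transgene, was measured at 684 to 807 CPM in CETPtg and 865 to 2063 CPM in APPtg/CETPtg mice, which matches the genotype labels of all 16 mice (log2 fold change 0.78, SE 0.15, adjusted p = 0.00178, edgeR's quasi-likelihood test). CPM is a read count scaled to one library size for all mice, after TMM normalization. The sequencing labels carry a number that differs between the genotypes (11 and 12 in CETPtg, 8 and 9 in APPtg/CETPtg) and a letter that differs between the treatments, so neither can be told apart from the groups. In bulk tissue, moreover, fewer cells of a type and less RNA per cell cannot be told apart.

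Per length, measured as CPM per kilobase of merged exons and averaged over the 16 mice, Cntfr was the most abundant member at 33.2 and Jak1 came next at 24.95. Jak2 followed at 9.41, Il6st at 8.31 and Stat3 at 6.23. Lower levels per kilobase were measured for Lifr (2.93), Socs3 (1.36), Il6ra (0.649) and Osmr (0.348). Thus the oncostatin M receptor beta subunit was the scarcest of the receptors, far below gp130, its signalling partner. Over the 16 mice the ranges of 4 neighbouring pairs overlapped: Jak2 and Il6st, Il6st and Stat3, Lifr and Socs3, and Il6ra and Osmr. Exon lengths were those of GENCODE M21, and isoforms that leave out part of them would shift this order.

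**Figure D1:**
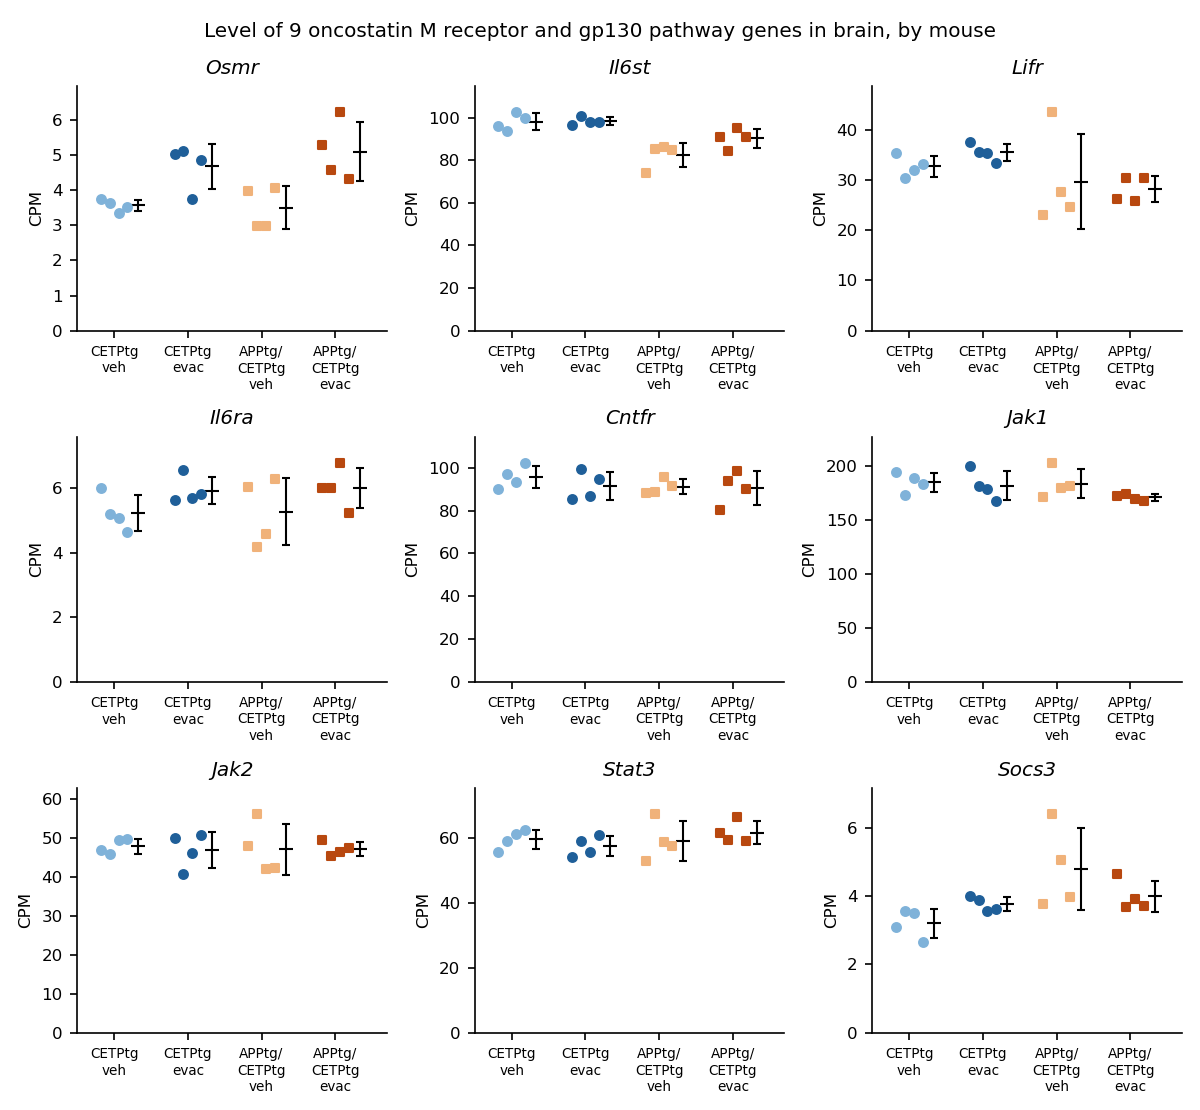
CPM of the 9 genes in each mouse (points) with the mean and SD of each group of 4 (black bar); circles are CETPtg and squares APPtg/CETPtg mice, pale for vehicle (veh) and dark for evacetrapib (evac), and every axis starts at 0. Il6st is lower in APPtg/CETPtg mice under each treatment, Osmr is higher in evacetrapib-treated mice except for replicate C at 3.74 CPM, and S6 stands high in Lifr (43.5 CPM) and Socs3 (6.40 CPM).

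Osmr (ENSMUSG00000022146, chromosome 15 of GRCm38, 6813577 to 6874969) encodes the oncostatin M receptor beta subunit, which also serves in the receptor for IL31. In CETPtg mice it was measured at 3.75, 3.63, 3.36 and 3.52 CPM in S1 to S4 under vehicle and at 5.03, 5.13, 3.74 and 4.85 CPM in A to D under evacetrapib. Replicate C fell within the vehicle range, just below S1, while the other evacetrapib-treated mice lay above it. In APPtg/CETPtg mice the values were 3.99, 2.97, 2.98 and 4.08 CPM in S5 to S8 and 5.28, 4.59, 6.22 and 4.32 CPM in E to H, with no overlap. Group means were 3.57 ± 0.165 and 4.69 ± 0.639 CPM in vehicle- and evacetrapib-treated CETPtg mice, and 3.51 ± 0.611 and 5.10 ± 0.851 CPM in the corresponding APPtg/CETPtg mice (SD, n = 4 each). The log2 fold change was 0.39 (SE 0.14) within CETPtg and 0.53 (SE 0.15) within APPtg/CETPtg mice. Between them these differences differed by 0.13 (SE 0.20, adjusted p = 0.909 for the interaction, edgeR), an interval wide enough to hold either none or a difference as large as the one in CETPtg mice. The genotype itself gave a log2 fold change of 0.06 (SE 0.099, adjusted p = 0.753).

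The only one of the 9 genes whose evacetrapib and vehicle groups did not overlap within APPtg/CETPtg mice was Osmr, and none was free of overlap within CETPtg mice. Over all genes tested, 4.29% were free of overlap in the first comparison and 3.92% in the second, and nothing is read from these shares since Osmr was picked on this contrast. Over both genotypes the treatment log2 fold change was 0.46 for Osmr (SE 0.099), 0.18 for Il6ra (SE 0.089) and 0.07 for Il6st (SE 0.038), and it lay between -0.06 (Jak1) and 0.03 (Lifr) for the other 6. In all, 5 of the 9 lay above 0, against 49.2% of all genes tested, with a median of 0.0045 on the log2 scale against -0.0015 over all genes. Gene-wise calls for treatment are rare in these data, 0.0107% of the genes tested.

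Markers of vessel cells lay on the same side of 0 as Osmr. All 12 endothelial markers and all 10 markers of pericytes and smooth muscle had a log2 fold change above 0 for treatment, with medians of 0.26 and 0.22, although only Myh11 was called. The lists hold 4 and 3 genes that the study picked on this very contrast (Pecam1, Flt1, Cdh5 and Kdr; Acta2, Tagln and Myh11), whose direction is therefore no independent evidence. The other 8 and 7 lay above 0 with medians of 0.20 and 0.20. They mark the same cells in the same mice and are given as a description as well. Other cell types did not lie evenly around 0 either: 8 of 10 markers of fibroblasts and meninges were above 0 (median 0.19) and all 8 of choroid plexus epithelium below 0 (median -0.58), with none called. The summed level of the vessel markers, as the median and range of each group, was 276 (273.5 to 325.5) CPM in vehicle- and 323 (308 to 355.5) CPM in evacetrapib-treated CETPtg mice for the endothelial list, and 267 (247 to 312) and 330.2 (316 to 365.5) CPM in APPtg/CETPtg mice. For pericytes and smooth muscle the medians were 207 and 233.5 CPM in CETPtg and 188.5 and 246 CPM in APPtg/CETPtg mice. For choroid plexus epithelium they were 25.7 and 34.8 CPM in CETPtg and 73.4 and 23.1 CPM in APPtg/CETPtg mice, with single mice from 15.7 to 469 CPM. None of these markers was at 0 in all mice. Their part in the Osmr difference was not tested.

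**Figure D2:**
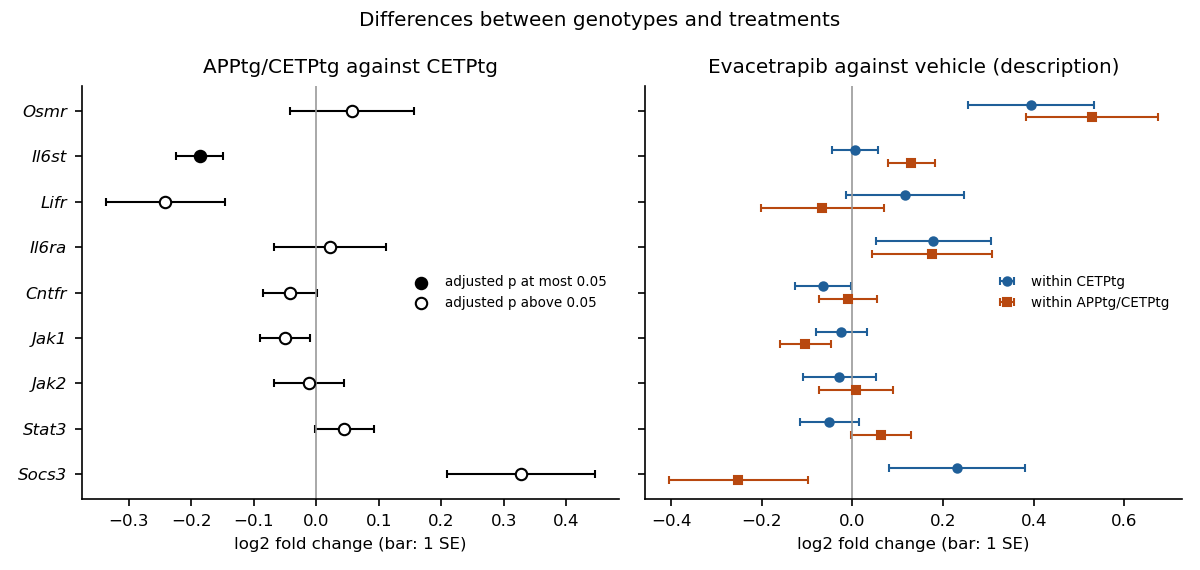
Log2 fold changes with 1 SE for the 9 genes, between genotypes in the model with a treatment term (left, filled where the adjusted p was at most 0.05) and between evacetrapib and vehicle within each genotype (right, circles CETPtg, squares APPtg/CETPtg; a description without a test). Only Il6st (-0.19) is filled on the left, and Osmr stands farthest above 0 on the right (0.39 and 0.53).

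Il6st (ENSMUSG00000021756, chromosome 13, 112464070 to 112510086) encodes gp130, the signalling subunit shared by the receptors for oncostatin M, leukaemia inhibitory factor, IL6 and ciliary neurotrophic factor. It was lower in APPtg/CETPtg mice. Under vehicle it was measured at 96.2, 93.6, 103 and 99.8 CPM in the CETPtg mice S1 to S4 and at 74.1, 85.0, 86.0 and 84.6 CPM in the APPtg/CETPtg mice S5 to S8. Under evacetrapib the values were 96.7, 101, 98.1 and 98.0 CPM in A to D against 91.1, 84.3, 95.0 and 90.7 CPM in E to H. The genotypes did not overlap under either treatment, although across treatments replicate G lay above S2. Means were 98.0 ± 3.92 CPM in vehicle-treated and 98.4 ± 1.68 CPM in evacetrapib-treated CETPtg mice, and 82.4 ± 5.59 and 90.3 ± 4.42 CPM in the APPtg/CETPtg mice (SD, n = 4 each). The log2 fold change between genotypes was -0.19 (SE 0.038, adjusted p = 0.00221, edgeR), a small change measured with a small error.

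Il6st was the only one of the 9 genes called between the genotypes, where 17.7% of all genes tested were called and 8.38% were called lower, so the count of called members is not above this background. With DESeq2 Il6st and Socs3 were called, where 19.8% of all genes were. Over all 16 mice none of the 9 was free of overlap between genotypes, where 3.03% of all genes were. The difference did not rest on S5, the lowest mouse, without which it was -0.16 (adjusted p = 0.00306). It was -0.19 with every library drawn down to the smallest total (adjusted p = 0.00162, edgeR). In the 12 mice with sequencing numbers 9 and 12 it was -0.19 as well (adjusted p = 0.0124, edgeR). There all mice of number 9 are APPtg/CETPtg and all of number 12 CETPtg, so number and genotype still cannot be told apart. Within APPtg/CETPtg mice Il6st was 0.13 higher on the log2 scale under evacetrapib (SE 0.051), and within CETPtg mice 0.00 (SE 0.051). The difference between these differences, 0.13 (SE 0.072), had an adjusted p of 0.747.

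Astrocyte markers differed between the genotypes as well. Of 9 such genes, 3 were called lower in APPtg/CETPtg mice, the glutamate transporter Slc1a2 (log2 fold change -0.35), the connexin Gja1 (-0.20) and the transcription factor Sox9 (-0.39), and Aldoc was called higher (0.14). Their summed level had group medians of 3543 and 3658 CPM in vehicle- and evacetrapib-treated CETPtg mice (range of both 3362 to 3865) and of 3099 and 3322 CPM in the APPtg/CETPtg mice (2806 to 3509). Slc1a2, with a mean of 1625 CPM over all mice, is the largest part of this sum, which therefore mainly follows that gene. Of the 9 astrocyte markers, 3 lay above 0 between the genotypes and 6 below, with a median of -0.11. Oligodendrocyte markers were called lower in 4 of 8 and microglial markers higher in 4 of 10. Over all genes tested, 8.38% were called lower and 9.35% higher between the genotypes. The part of these cell types in the Il6st difference was not tested.

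Lifr (ENSMUSG00000054263, chromosome 15, 7090614 to 7197489) encodes the partner of gp130 in the receptor for leukaemia inhibitory factor. Under evacetrapib it was measured at 37.6, 35.5, 35.4 and 33.4 CPM in CETPtg and at 26.2, 30.3, 25.7 and 30.5 CPM in APPtg/CETPtg mice, with no overlap. Under vehicle the CETPtg mice gave 35.4, 30.4, 32.0 and 33.2 CPM and the APPtg/CETPtg mice 23.1, 43.5, 27.6 and 24.6 CPM. S6, at 43.5 CPM the highest of all 16 mice, broke a separation that the other 3 of its group would have kept. With S6 the log2 fold change between genotypes was -0.24 (SE 0.095) with an adjusted p of 0.0852 (edgeR), so Lifr was not called. Without S6 it was -0.36 with an adjusted p of 0.000109. Of 26 alternative analyses 4 called Lifr, among them the one without S6. It was -0.21 without S8 (adjusted p = 0.162) and -0.20 in the mice with sequencing numbers 9 and 12 (adjusted p = 0.300).

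Il6ra (ENSMUSG00000027947, chromosome 3, 89864059 to 89913196) encodes the subunit that binds IL6, and was the second scarcest member per length. The values in CETPtg mice were 6.0, 5.19, 5.07 and 4.65 CPM under vehicle and 5.65, 6.57, 5.68 and 5.82 CPM under evacetrapib. In APPtg/CETPtg mice they were 6.03, 4.19, 4.58 and 6.29 CPM under vehicle and 6.0, 6.01, 6.78 and 5.24 CPM under evacetrapib. The groups overlapped in every comparison, and the log2 fold change between genotypes was 0.02 (SE 0.089, adjusted p = 0.907). Part of the Il6ra exons, 242 bases, overlaps an annotated gene on the opposite strand, and the strand setting of the counting is not given in the sources used here.

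Cntfr (chromosome 4, 41657498 to 41697089), whose product binds ciliary neurotrophic factor, was abundant and even. Its group means lay between 90.6 ± 7.76 CPM in evacetrapib-treated APPtg/CETPtg mice and 95.7 ± 5.15 CPM in vehicle-treated CETPtg mice (SD, n = 4 each), with 80.3 CPM in replicate E as the lowest and 102 CPM in S4 as the highest value. The genotypes differed by -0.04 on the log2 scale (SE 0.044, adjusted p = 0.567).

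The receptor-bound kinases varied little. Jak1 (chromosome 4, 101152367 to 101265282) had group means of 171 ± 3.07 CPM in evacetrapib-treated and 184 ± 13.4 CPM in vehicle-treated APPtg/CETPtg mice. In evacetrapib- and vehicle-treated CETPtg mice they were 182 ± 13.8 and 185 ± 8.86 CPM (SD, n = 4 each). For Jak2 (chromosome 19, 29251828 to 29313080) the 4 means lay between 47.0 and 48.0 CPM, while single mice spread from 40.9 CPM in B to 56.2 CPM in S6. The log2 fold change between genotypes was -0.05 for Jak1 (SE 0.040, adjusted p = 0.441) and -0.01 for Jak2 (SE 0.056, adjusted p = 0.920).

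Stat3 (chromosome 11, 100885098 to 100939540), the transcription factor at the end of the cascade, is regulated mainly by phosphorylation, which RNA does not show. Its transcript was at 55.5 to 62.3 CPM in vehicle-treated and 54.0 to 60.8 CPM in evacetrapib-treated CETPtg mice. The range in APPtg/CETPtg mice was 52.8 to 67.2 CPM under vehicle and 59.1 to 66.5 CPM under evacetrapib, so the 4 groups overlapped. Between genotypes the log2 fold change was 0.04 for Stat3 (SE 0.047, adjusted p = 0.568). The Stat3 exons share 72 bases with Stat5a on the opposite strand.

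Socs3 (ENSMUSG00000053113, chromosome 11, 117966079 to 117970047) encodes the feedback inhibitor of gp130, and its transcript is often read as a measure of STAT3 activity. Under vehicle it was measured at 3.09, 3.58, 3.50 and 2.64 CPM in CETPtg mice and at 3.77, 6.40, 5.06 and 3.99 CPM in APPtg/CETPtg mice, with no overlap. Under evacetrapib the values were 3.99, 3.90, 3.56 and 3.63 CPM in CETPtg and 4.64, 3.69, 3.92 and 3.71 CPM in APPtg/CETPtg mice, and the genotypes overlapped. Of the 9 genes, Il6st and Socs3 were free of overlap between genotypes under vehicle, where 17.0% of all genes were, and Il6st and Lifr under evacetrapib, where 10.8% were. Over both treatments the log2 fold change of Socs3 was 0.33 (SE 0.12), which did not pass the threshold (adjusted p = 0.0607, edgeR). Without S6 it was 0.23 (adjusted p = 0.114, edgeR).

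The Socs3 means were 3.20 ± 0.429 CPM in vehicle- and 3.77 ± 0.208 CPM in evacetrapib-treated CETPtg mice, and 4.80 ± 1.20 and 3.99 ± 0.446 CPM in APPtg/CETPtg mice (SD, n = 4 each). Under evacetrapib the transcript was thus 0.23 higher on the log2 scale in CETPtg mice (SE 0.15) and -0.25 in APPtg/CETPtg mice (SE 0.15). The interaction, -0.48 (SE 0.21), had an adjusted p of 0.708 by edgeR, and its p before adjustment was 0.0368 (edgeR quasi-likelihood test). None of the 9 genes was called for the interaction, nor was any of the 18609 genes tested (0%), of which 1271 (6.83%) had an unadjusted p below 0.05; DESeq2 called 2 (0.0107%).

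**Figure D3:**
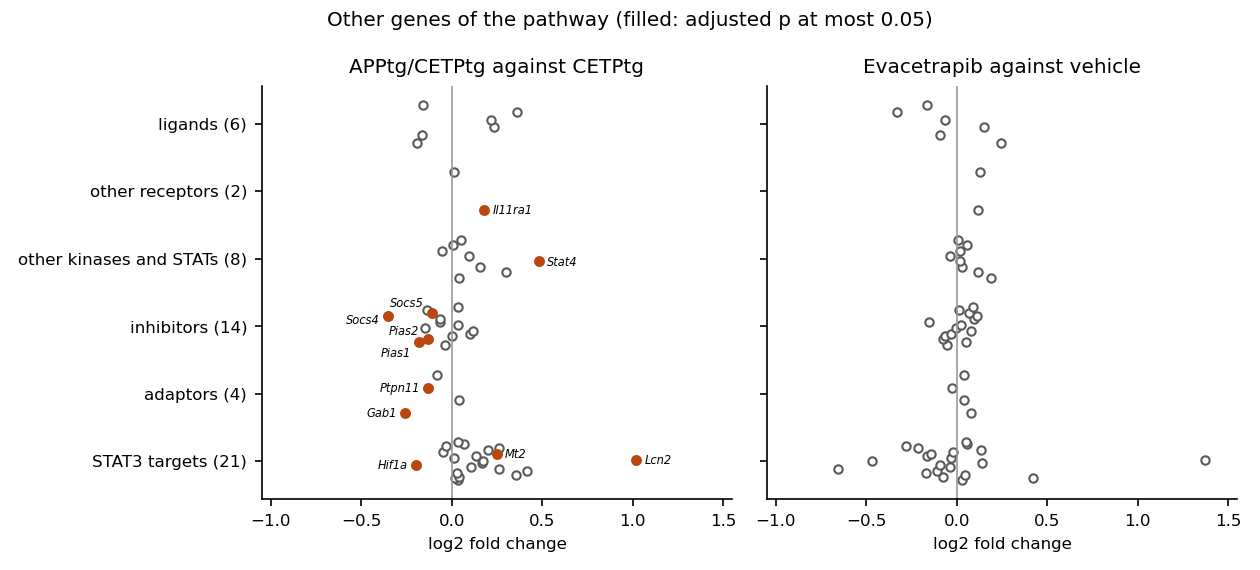
Log2 fold changes of the 55 other pathway genes tested, by class with the number tested in brackets, between genotypes (left) and between evacetrapib and vehicle (right); filled points have an adjusted p of at most 0.05 and are named. Between genotypes 11 points are filled, with all 4 filled inhibitors below 0, and between treatments none is, Lcn2 at 1.37 being the farthest from 0.

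A list of 62 other genes of the pathway was examined for its ligands, further receptors, kinases and STATs, inhibitors, adaptors and STAT3 targets. Of these, 55 passed the filter on low counts. Ligands were scarce in whole brain: Osm itself had at most 11 reads in any mouse and 0 in 1 mouse, Il6 had at most 4 reads, Ctf2 had 0 reads in all 16, and with Cntf and Il27 these 5 of 11 ligands were not tested. The 2 most abundant ligands, the cardiotrophin gene Ctf1 and the cytokine gene Clcf1, averaged 1.31 and 1.36 CPM over all mice. No ligand was called for genotype or treatment.

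Between genotypes, 11 of the 55 were called, beside 17.7% of all genes, with 4 higher (9.35% of all genes) and 7 lower (8.38%) in APPtg/CETPtg mice. All 4 called inhibitors were lower, of 14 tested: Socs4 (log2 fold change -0.35, adjusted p = 0.00111), Socs5 (-0.11, adjusted p = 0.0367), and the STAT-binding SUMO ligases Pias1 (-0.18, adjusted p = 0.00665) and Pias2 (-0.13, adjusted p = 0.0470). Socs4 and Pias1 were called under all 26 alternatives, but Socs5 was lost in 6, among them without A, S5 or S8, and Pias2 in 15, among them 11 of the 16 fits without 1 mouse. Socs4 fell from 11.7 ± 0.380 to 9.09 ± 0.843 CPM under vehicle and from 12.6 ± 1.24 to 9.92 ± 1.17 CPM under evacetrapib (SD, n = 4 each). Of the 4 adaptors, which link gp130 to the RAS pathway, the phosphatase gene Ptpn11 (-0.13, adjusted p = 0.00531) and the docking protein gene Gab1 (-0.26, adjusted p = 0.00941) were lower. Ptpn11 went from 246 ± 3.09 to 226 ± 11.3 CPM under vehicle, and Grb2, at 161 ± 3.60 and 161 ± 29.2 CPM, was not called. The most abundant inhibitor, Socs7, averaged 153 ± 5.86 CPM in vehicle-treated CETPtg and 156 ± 11.8 CPM in vehicle-treated APPtg/CETPtg mice and was not called.

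Among other receptors and STATs, Il11ra1, the receptor for the cytokine IL11, was higher in APPtg/CETPtg mice (0.18, adjusted p = 0.0137), with 17.8 ± 1.43 against 20.7 ± 0.889 CPM under vehicle. Il27ra, the other receptor tested, was at 0.331 CPM over all mice and not called (0.01, adjusted p = 0.985). Near-identical copies of Il11ra1 in the mouse genome make its count uncertain. Stat4 was higher as well (0.48, adjusted p = 0.0114) at about 1 CPM, with 24 to 79 reads per mouse in the vehicle-treated APPtg/CETPtg group, whereas the abundant Stat5b and Stat2 were not called.

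Of the 21 STAT3 targets tested between genotypes, 18 lay above 0, where 51.2% of all genes tested did, with a median of 0.11 over the 21. Several of the 18 lay within 1 SE of 0. These signs are a description, and STAT3 activity was not tested. In all, 3 targets were called. Those were the metallothionein gene Mt2 (0.25, adjusted p = 0.0124) and the iron-binding lipocalin gene Lcn2 (1.02, adjusted p = 0.0430), both higher, and the hypoxia factor Hif1a (-0.20, adjusted p = 0.00271), which was lower. Mt2 went from 75.4 ± 5.22 to 92.0 ± 10.9 CPM under vehicle. The call of Lcn2 was lost in 15 of the 26 alternatives, among them 11 of the 16 fits without 1 mouse, whereas Mt2 and Hif1a were called in all. Lcn2 rested on 2 to 44 reads per mouse, with its highest mean, 0.964 ± 0.476 CPM, in evacetrapib-treated APPtg/CETPtg mice. The most abundant target, Mt1, was not called (0.13, adjusted p = 0.0551), with 197 ± 14.5 against 215 ± 5.66 CPM under vehicle. Gfap, the astrocyte filament gene and a classical STAT3 target, was not called, at 149.6 ± 9.19 and 155 ± 41.5 CPM under vehicle and 140.0 ± 18.5 and 157 ± 33.2 CPM under evacetrapib (SD, n = 4 each).

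For treatment over both genotypes, 0 of the 55 were called by edgeR, with 9 at an unadjusted p below 0.05 (7.91% of all genes), and 0 by DESeq2, which called 0.306% of all genes. In all, 30 lay above 0 and 25 below, with a median of 0.02. The largest difference was that of Lcn2 (1.37, adjusted p = 0.237), and Mt1 was at -0.16 (SE 0.046, adjusted p = 0.317). Within CETPtg mice 0 of the 55 were called by edgeR or DESeq2 (0% of all genes by edgeR). The same comparison in APPtg/CETPtg mice gave 1 call, Junb, an immediate early gene of the AP-1 family, where 0.0430% of all genes were called. Counts by unadjusted p are not given within each genotype, for want of a share over all genes.

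Junb was measured at 104, 99.4, 124 and 97.1 CPM in the vehicle-treated APPtg/CETPtg mice S5 to S8 and at 51.5, 33.3, 52.4 and 66.7 CPM in the evacetrapib-treated mice E to H, with no overlap. In CETPtg mice it was at 55.0 to 72.0 CPM under vehicle and at 51.9 to 83.0 CPM under evacetrapib, so the vehicle-treated APPtg/CETPtg mice stood above all other groups. The log2 fold change under evacetrapib was -1.06 within APPtg/CETPtg mice (SE 0.16, adjusted p = 0.0125, edgeR) and 0.10 within CETPtg mice (SE 0.15, adjusted p = 0.940). The call was lost without G (adjusted p = 0.0609), without S7 (adjusted p = 0.0695) and in numbers 9 and 12 (adjusted p = 0.157). The difference between the genotypes' effects was not called for Junb (-1.16, adjusted p = 0.263), nor for any of the 55. Fos, another immediate early gene, went from 40.4 ± 7.49 to 15.1 ± 7.58 CPM in APPtg/CETPtg mice (SD, n = 4 each; log2 fold change -1.42, adjusted p = 0.153; interaction -1.48, adjusted p = 0.703). Junb and Fos are named after their values were seen.

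Among mice of the same group, members varied to different degrees. The pooled SD of log2 CPM within groups was 0.22 for Lifr, 0.22 for Socs3, 0.20 for Osmr and 0.19 for Il6ra, and 0.13 for Jak2, 0.098 for Stat3, 0.094 for Cntfr, 0.083 for Jak1 and 0.070 for Il6st. Counting error weighs more on Osmr, with 66 to 228 reads per mouse, than on Lifr, with 509 to 1703. S6 was the highest of the 16 mice for Lifr, Jak1, Jak2, Stat3 and Socs3 and the lowest for Osmr and Il6ra. It also stood apart in cell type markers, with the highest mean log2 CPM for neurons (9.75). Its means for pericytes and smooth muscle (2.93) and for oligodendrocytes (7.20) were the lowest. The part of tissue makeup in the values of S6 was not tested.

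With group means subtracted, the 36 pairs of members were correlated over the 16 mice, and 0 passed after adjustment over the 36 (permutation test within groups). Osmr and Il6ra had the largest r, 0.79 (permutation p = 0.00491, adjusted 0.0884), with a rho of 0.78 (permutation p = 0.00716, adjusted 0.135), and r was 0.82 without the 2 mice farthest from the Osmr median, C and H. Lifr and Jak1 followed with an r of 0.72 (permutation p = 0.00145, adjusted 0.0522) and a rho of 0.57 (permutation p = 0.0293, adjusted 0.317), and an r of 0.495 without S5 and S6. Osmr and Socs3 had an r of -0.30 (permutation p = 0.371, adjusted 0.603) and a rho of -0.16. These values share each library's depth and tissue makeup.

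Against the mean log2 CPM of the markers of 9 cell types, none of the 81 relations passed either (permutation test, smallest adjusted p = 0.651). Lifr had the largest r, 0.85 with neuronal markers (permutation p = 0.113, adjusted 0.686), with a rho of 0.46 (permutation p = 0.151, adjusted 0.926), but r was 0.37 without S5 and S6, on which it rested. Il6st with astrocyte markers gave an r of 0.70 (permutation p = 0.0437, adjusted 0.651) and a rho of 0.54 (permutation p = 0.0684, adjusted 0.791), and an r of 0.44 without F and S5. Osmr, within groups, had an r of 0.24 with endothelial markers (permutation p = 0.453, adjusted 0.954) and of 0.31 with those of pericytes and smooth muscle (permutation p = 0.385, adjusted 0.954), with a rho of 0 and 0.15.

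**Figure D4:**
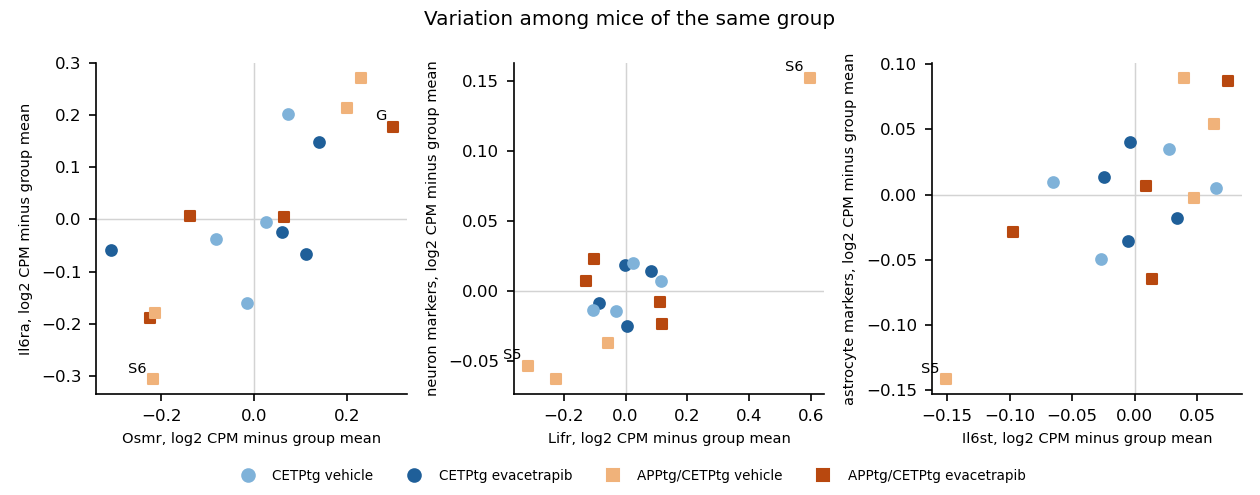
Log2 CPM minus the group mean in each of the 16 mice for Osmr and Il6ra (left), Lifr and the mean of 8 neuronal markers (middle) and Il6st and the mean of 9 astrocyte markers (right), coloured by group. Osmr and Il6ra spread along a line over all groups (r = 0.79), whereas the middle plot rests on S5 and S6 (r = 0.85, and 0.37 without them) and S5 is the lowest mouse in the right plot (r = 0.70).

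The genes whose levels were most like those of Osmr within groups, of 14986 with a mean of at least 1 CPM over the 16 mice, were Mrpl58 (r = 0.89), Emcn (r = 0.85), Secisbp2 (r = 0.83), 2410022M11Rik (r = 0.82) and Hvcn1 (r = 0.80). Emcn encodes endomucin, a sialomucin of endothelial cells, and Mrpl58 a protein of the mitochondrial ribosome. Ranked by Spearman's rho, 3 of these 5 were again among the top 5, and without subtraction of the group means only 1, Emcn. For Socs3 the genes were Dact1 (r = 0.88), A930024E05Rik, Grm8 (r = 0.86 each), Tdg and Psma5 (r = 0.85 each). Of these 5, 0 were among the top 5 by rho and 1, Psma5, without subtraction of the group means. With so many candidates over 16 mice, values of this size are a description.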

How the data were processed

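RNA from bulk brain of 16 mice was examined, 4 per group. The authors enriched poly(A) RNA, made directional libraries, trimmed read pairs with Trimmomatic 0.39, aligned them to mm10 with STAR 2.7.8a and counted reads per gene with HTSeq. The deposited values are raw counts, whole numbers without normalization; the annotation and strand setting of the counting are not given in the sources used here. The totals were 21391335 to 55453789 reads per mouse.

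The 9 members were taken by their symbol. Members and lists were chosen with earlier results of these data known. A gene was kept where 4 or more mice had 10 or more counts, which left 18609 genes. After TMM normalization these were tested by edgeR 4.0.16 under R 4.3.3 (quasi-likelihood test, two-sided, Benjamini-Hochberg adjustment over all genes kept). The model held genotype and treatment; differences within each genotype and the interaction came from a model with 4 group means. A call needed, as in the study, an adjusted p no higher than 0.05 and a 1.05-fold change or more. CPM used TMM library totals, and log2 CPM a prior count of 2. The script was tested on simulated data. The labels do not state that each sample is a separate mouse, as assumed here, so p-values measure only the spread between these samples. Replicates of a group differed by more than sampling noise.

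Besides the members, the text names, for each class of the pathway list, the 2 genes of highest mean CPM and those called, the 5 genes most like Osmr and Socs3 by Pearson's r after subtraction of the group means, Thy1 and cell type markers. Correlations over mice were tested by 100000 permutations within groups. Gene coordinates and exon lengths came from GENCODE M21 (GRCm38), which holds 55141 of the 55487 identifiers. DESeq2 1.42.0, limma-voom (limma 3.58.1), other scaling, filters and thresholds, a subset by sequencing number, and fits without each mouse were alternatives. A replicate block and libraries drawn down to one total were added after seeing the data, as were the alternatives for treatment within each genotype. Depth limits what could be read from Osm, Il6 and other genes with few reads.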

Additional observations from a re-analysis of the deposited data

Results flagged for a closer look

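Of 36 groups of 4 mice examined (9 genes in 4 groups), 1 held a mouse far from the rest of its group. Il6st, the gene of gp130, was at 74.1 CPM in APPtg/CETPtg vehicle replicate S5, where the other 3 mice of the group lay between 84.6 and 86.0 CPM. Chance alone flags about 1 in 20 such groups. Without S5 the genotype difference of Il6st was -0.16 on the log2 scale and still called (adjusted p = 0.00306, edgeR).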

How the results depend on the processing

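The genotype difference of Il6st was called under all 26 alternatives, with log2 fold changes from -0.21 to -0.16 and adjusted p from 3.93e-05 to 0.0124. In the analysis reported 1 of the 9 genes was called, beside 3299 of all 18609 genes tested. With DESeq2 2 were (Il6st and Socs3, the latter at an adjusted p of 0.0349), beside 3690 of 18609. Il6st and Lifr were called with limma-voom, beside 3371 of 18609 genes, and without a filter, beside 2752 of 34733. At an adjusted p of at most 0.1, 3 were called, beside 4526 of 18609. With 1 mouse left out 1 to 2 were called. Lifr was the second without S6, beside 3129 of 18597 genes. The count of members above 0 for treatment, 5, was 3 to 7 with 1 mouse left out. Within APPtg/CETPtg mice 1 pathway gene was called for treatment as reported. The count was 2 with DESeq2, 3 without a filter, 0 in numbers 9 and 12 and 0 to 1 with 1 mouse left out. No share over all genes is given for these alternatives, so nothing is read from their counts. Junb ranged from -1.21 to -0.84. In the interaction, 2 pathway genes (Junb and Fos) were called without a filter, where 29 of all 34733 genes were, and 0 otherwise.

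Differences near 0 changed sign, none of them called. For genotype, with 1 mouse left out, Il6ra ranged from -0.027 to 0.058, Jak2 from -0.059 to 0.014 and Osmr from -0.0069 to 0.088. For the interaction, Il6ra was 0.00041 with 10 counts required in every mouse, 0.13 with libraries drawn down and 0.032 in numbers 9 and 12, and ranged from -0.090 to 0.11 with 1 mouse left out. Jak2 was -0.012 with libraries drawn down and -0.027 in numbers 9 and 12, and ranged from -0.030 to 0.13, and Lifr from -0.28 to 0.053. The causes were not tested.

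Over all genes, the count called for treatment was 2, against 57 with DESeq2, 35 without a filter and 8 without S8, and for the interaction 0, against 2 and 29. The treatment log2 fold change of Osmr lay between 0.41 and 0.51 throughout. Of the 11 pathway genes called between genotypes, Ptpn11 was lost in numbers 9 and 12, Socs5 in 6 and Pias2 and Lcn2 in 15 alternatives each, and the other 7 in none. A block for the replicate numbers of the column headers, which do not pair the mice, changed no call among the 9 genes.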
